A study of Mus musculus with 18 samples.

Results

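The comparison described here sets treated tumors against untreated tumors within mice that received both agents of a combined immunotherapy. The samples were chosen by their titles and not by any measured value: 3 treated-tumor samples and 3 untreated-tumor samples of the combination arm, which are 6 of the 18 samples measured. All were grown from TUBO cells, a cultured mouse mammary carcinoma line driven by the rat HER2/neu oncogene, in females of the BALB/c strain. The combination joined a semaphorin 4D blocking antibody (written aSEMA4D in the titles) with dendritic cells called HER2 DC1, which were placed into the tumor. Treatment lasted 3 weeks, and tumors were taken at the same time and frozen. The other 12 samples came from mice given HER2 DC1 alone, the antibody alone or neither, with 2 treated and 2 untreated tumor samples in each of those arms. The untreated tumor of the combination arm was the comparator, and it belonged to mice that also received both agents. The labels do not give the route of the antibody, the distance between the tumors, the loading of the dendritic cells or which samples shared a mouse. They give no age and no genotype beyond the strain.

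Dendritic cells take up antigen, move to lymph nodes and present it to T cells, and those of the DC1 kind are known for the cytokines that steer helper T cells toward antitumor responses. Semaphorin 4D is a cell surface and shed guidance protein that acts through plexin receptors and is known to limit the entry of immune cells into tumors. A tumor that receives dendritic cells directly can differ from a distant tumor in which T cells and antibody arrive by the blood. RNA was counted with a NanoString nCounter panel of metabolic pathway genes, which also holds many genes of lymphocytes and macrophages.

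Values are the deposited log2 of a scaled count plus 1 for 768 panel genes. The 6 samples held between 596177 and 909415 panel counts, and 552 to 609 genes lay above a limit set from the 8 negative control probes of each sample (log2 of 5.24 to 5.85). In all, 645 genes exceeded the limit in at least 1 of the 6 samples. Replicate 2 of the treated tumors stood apart. Its position on the first principal component of all 18 samples (58.7% of the variance) was 37.7, against 13.5 and 22.7 for its replicates and -1.24, 8.07 and 10.03 for the untreated tumors. Its correlation with treated replicates 1 and 3 was 0.928 and 0.965 over all panel genes, while those 2 correlated at 0.974. It was the highest of the 6 samples for 383 genes (49.9%) and the lowest for 135 (17.6%). Untreated replicate 1 was the lowest for 316 genes. The median within-group SD was 0.364 in treated and 0.264 in untreated tumors, and 0.187 for treated replicates 1 and 3 by themselves.

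**Figure D1:**
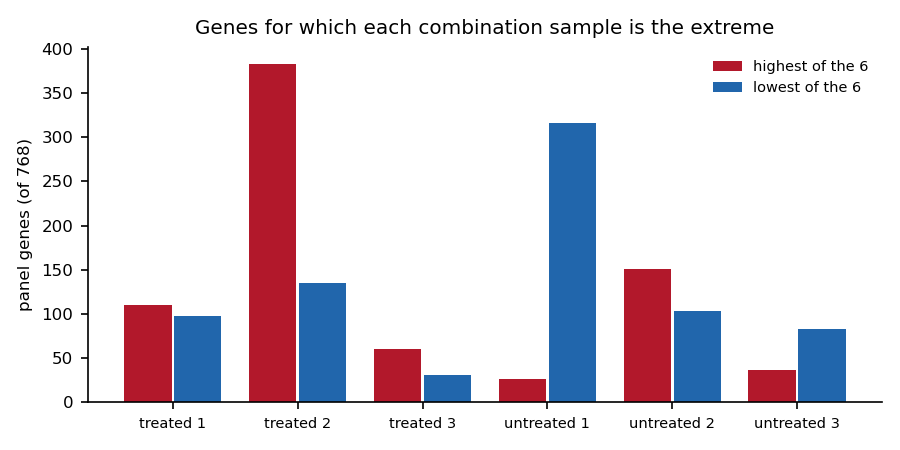
Number of panel genes, of 768, for which each combination sample (horizontal axis, treated and untreated replicates 1 to 3) had the highest value of the 6 (red bars) or the lowest (blue bars). Treated replicate 2 was the highest for 383 genes and untreated replicate 1 the lowest for 316.

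Genes higher in the treated tumors included the 3 measured collagen VI chains, 6 of 14 T cell markers, 5 of 7 macrophage and monocyte genes and 5 of 16 autophagy and lysosome genes, and 3 of 18 cell cycle genes were lower. In limma, 70 of 768 genes passed an adjusted p of 0.05 (9.11%), 64 of them higher in treated tumors (8.33%) and 6 lower (0.781%). Of the 64 higher genes, 44 exceeded the limit in at least 1 sample of each kind of tumor. A further 9 were at or below it in every untreated sample, and 11 were at or below it in all 6 samples. All 3 treated samples lay above all 3 untreated samples for 193 genes (25.1%) and below them for 50 (6.51%). Treated replicate 2 was the highest sample for 60 of the 64 higher genes and the lowest for each of the 6 lower genes. The median panel gene was itself 0.26 (log2) higher in treated tumors. Centring each sample on its median gene gave 41 higher and 19 lower genes, and centring on 20 housekeeping genes gave 33 and 16. The share of higher genes among those called was 91.4%, 68.3% and 67.3% in turn, and 33 higher and 6 lower genes were shared by the 3 scalings. These are bulk samples, in which fewer cells of a type and less RNA per cell cannot be told apart.

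The number of genes past the threshold depended on single samples. Without treated replicate 2 it was 11 genes (1.43%), 10 higher and 1 lower, and each of the 70 genes kept its sign. For 61 of the higher and 6 of the lower genes the groups did not overlap, so the sign could not change. The number past the threshold was 158 without treated replicate 1, 48 without treated replicate 3, 5 without untreated replicate 1, 19 without untreated replicate 2 and 55 without untreated replicate 3. Samples of the other arms enter this test only through the shared estimate of the spread. The count was 38 without either treated-tumor control sample, 39 or 40 without an anti-semaphorin 4D sample, 53 without a treated-tumor DC1 sample, 56 without an untreated-tumor control sample and 83 without an untreated-tumor DC1 sample. Among the genes described below, the calls of Col6a2, Pdgfrb, Cd68, Csf3r, Lat, Lck, Cd40lg, Ctsz, Gabarap, Uck2, Hmox1, Rragc, Il6, Tk1, Mybl1, Mybl2 and Ccna2 ended without at least 1 of those outside samples, as did those of 12 further genes described with Hsd11b1, with adjusted p up to 0.0702. A fit on the 6 combination samples by themselves called 3 genes.

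**Figure D2:**
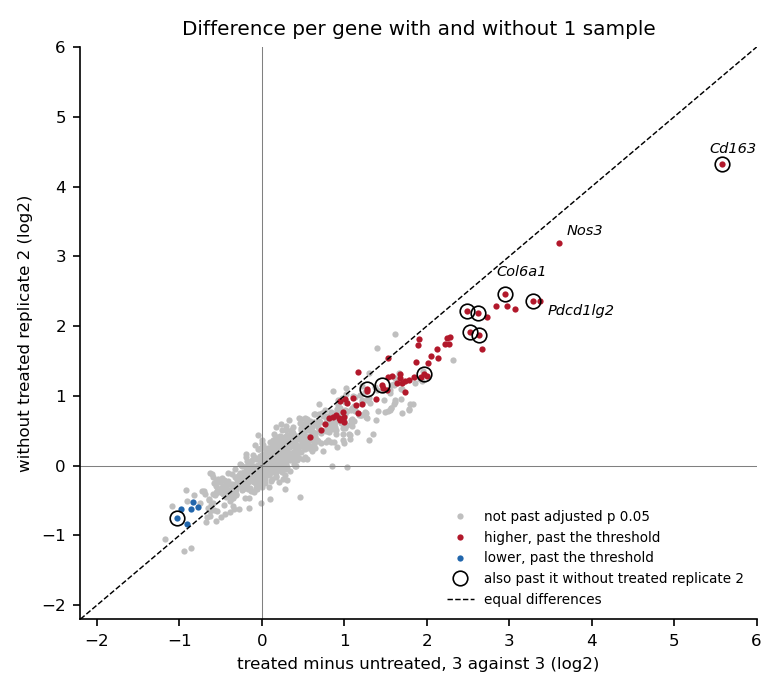
Treated minus untreated difference (log2) of each of the 768 panel genes with all 6 combination samples (horizontal axis) and without treated replicate 2 (vertical axis). Red and blue points passed adjusted p 0.05 with all 6 samples, circles mark the 11 that also passed without replicate 2, and most red points lie below the dashed line of equal differences.

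The genes whose higher level in treated tumors rested least on single samples were Col6a1, Runx1, Pik3cd, Pparg and Agk. These 5 genes passed the test whichever of the 6 combination samples was left out and under both centrings. Col6a1 did not pass in the fit on the 6 combination samples by themselves (adjusted p = 0.0821). With values under the negative-control limit set to it, Pparg and Agk no longer passed (adjusted p = 0.327). Col6a1 encodes a chain of collagen VI, a microfibril of the matrix around stromal cells. In treated replicates 1 to 3 its values were 9.86, 11.04 and 9.30, against 7.05, 6.73 and 7.56 in the untreated tumors. The groups did not overlap, with a gap of over 1 log2 unit between the lowest treated and the highest untreated sample. Col6a1 was 7.73-fold higher (log2 difference 2.95, SE 0.40, adjusted p = 0.00285). Without treated replicate 2 the difference was 2.46 (adjusted p = 0.00881).

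Runx1 encodes a transcription factor of blood cells that is also active in mammary epithelium and fibroblasts. It stood at 9.64, 10.23 and 9.76 in treated tumors and at 8.68, 8.30 and 8.80 in untreated tumors. The treated samples lay close together here, replicate 2 included. The gene was 2.43-fold higher (log2 difference 1.28, SE 0.20, adjusted p = 0.00492). Pik3cd, the delta catalytic subunit of phosphoinositide 3-kinase found mainly in leukocytes, had values of 6.06, 7.76 and 6.89 against 4.22, 3.82 and 4.81. Every untreated value was below the negative-control limit, so the gene was at least 3.00-fold higher (log2 difference 2.62, SE 0.41, adjusted p = 0.00492). The nuclear receptor gene Pparg, active in fat cells and in alternatively activated macrophages, was above the limit in treated replicate 2 but in no other sample. Its values were 5.02, 5.98 and 5.35 against 2.97, 3.35 and 2.57 (adjusted p = 0.00285), 1.10-fold higher with untreated values set to their limits. Agk, a mitochondrial lipid kinase that the panel lists as a housekeeping gene, likewise exceeded the limit in treated replicate 2 alone (adjusted p = 0.00946). With untreated values set to their limits its fold was 1.00.

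**Figure D3:**
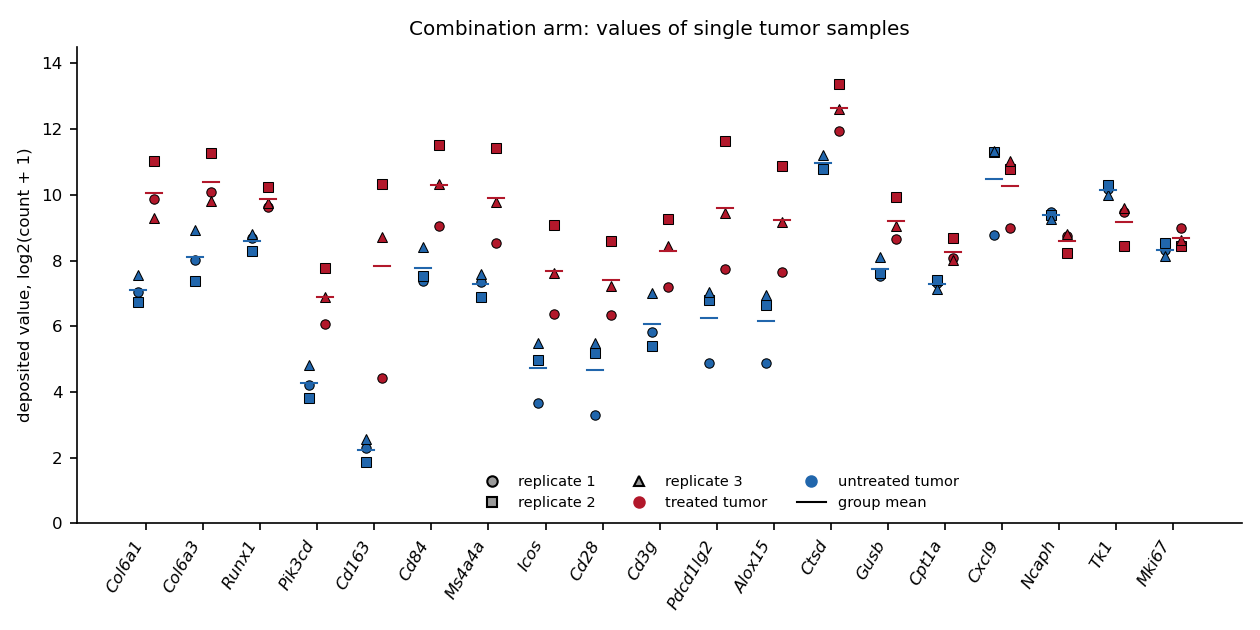
Deposited value, log2(count + 1), of 19 genes (horizontal axis) in each combination sample, with red symbols for treated and blue for untreated tumors, a shape for each replicate number and a line at each group mean. Squares (replicate 2) top the treated tumors for the collagen, macrophage, T cell and lysosomal genes and lie lowest for Ncaph and Tk1.

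Of 8 fibroblast and matrix genes, 4 were higher in treated tumors (Col6a1, Col6a2, Col6a3 and Pdgfrb), 0 were lower and 4 did not pass, and Col6a1 alone passed without treated replicate 2. Their median difference was 1.80 (log2), against 0.26 for the panel, and 1.38 without treated replicate 2. Beside Col6a1 the other collagen VI chains rose. Col6a3 had values of 10.09, 11.28 and 9.81 against 8.03, 7.38 and 8.92, 4.85-fold higher (log2 difference 2.28, SE 0.50, adjusted p = 0.0204). Col6a2 had 10.61, 12.33 and 10.77 against 9.23, 8.36 and 10.07, 4.06-fold higher (log2 difference 2.02, SE 0.56, adjusted p = 0.0458). Neither chain overlapped between the groups, and for both the untreated replicate 2 was the lowest sample. Pdgfrb, the platelet-derived growth factor receptor of fibroblasts and pericytes, stood at 6.73, 7.59 and 6.70 against 5.18, 4.63 and 6.46, where 1 of 3 untreated values exceeded the limit (3.00-fold, adjusted p = 0.0489). The endothelial nitric oxide synthase gene Nos3 passed (adjusted p = 0.0241) with 5.06, 6.01 and 4.51 against 1.00, 1.21 and 2.57. It exceeded the limit only in treated replicate 2, no fold is given, and with values under the limit set to it the adjusted p was 0.327. Sod3, the extracellular superoxide dismutase, had 7.05, 10.17 and 8.46 against 5.53, 6.85 and 6.34 and did not pass (adjusted p = 0.0964). The summed scaled counts of the 8 genes were 5908 to 13597 in treated and 2894 to 3984 in untreated tumors, and their part in other results was not tested. Col6a2, Col6a3, Pdgfrb and Nos3 lost their calls without treated replicate 2 (adjusted p from 0.109 to 0.224), without untreated replicate 1 (0.0808 to 0.144) and without untreated replicate 2 (0.0824 to 0.146). Col6a2 and Pdgfrb also lost theirs without treated replicate 3 (0.0538 and 0.0692), under median centring (0.0668 and 0.0877) and under housekeeping centring (0.0718 and 0.0884).

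Macrophage genes had the largest median difference of the 30 gene lists with at least 4 measured members. The members of the lists were chosen with earlier results of these data known, so this order is a description and not a test. Of 7 macrophage and monocyte genes, 5 were higher and 0 lower, with a median difference of 2.53, or 1.88 without treated replicate 2, when 3 still passed. Cd163, the hemoglobin scavenger receptor of tissue macrophages, had the largest difference of any panel gene. Its values were 4.42, 10.33 and 8.71 in treated tumors against 2.30, 1.86 and 2.57. Treated replicate 1 was itself below the limit, as was every untreated sample. With untreated values set to their limits, Cd163 was 5.68-fold higher (log2 difference of the deposited values 5.58, SE 1.08, adjusted p = 0.0134). Cd84, an adhesion receptor of the SLAM family on leukocytes, stood at 9.05, 11.53 and 10.32 against 7.36, 7.53 and 8.42, 5.76-fold higher (log2 difference 2.53, SE 0.49, adjusted p = 0.0134). Ms4a4a, a membrane protein of macrophages, had 8.52, 11.44 and 9.79 against 7.34, 6.90 and 7.60 and was 6.22-fold higher (adjusted p = 0.0134). In each of these genes the treated samples had the order 2, 3, 1 from high to low, and the groups did not overlap.

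Cd68, a lysosomal glycoprotein of macrophages, had 9.60, 12.35 and 11.10 against 9.15, 8.46 and 9.65, with treated replicate 1 inside the untreated range (3.81-fold, adjusted p = 0.039). It lies outside the rule for named genes and was chosen after its values were seen. Alox15, the lipoxygenase of alternatively activated macrophages and eosinophils, had 7.64, 10.88 and 9.16 against 4.88, 6.64 and 6.94 and was 8.42-fold higher (log2 difference 3.07, SE 0.73, adjusted p = 0.0241), with 2 of 3 untreated samples above the limit. Cd14, the lipopolysaccharide coreceptor, went the other way in 1 sample: treated replicate 2 had 10.93, while the other 5 samples ranged from 12.37 to 12.85 (adjusted p = 0.231). Outside this list, Cd209e, a lectin, was above the limit in treated replicate 2 alone (adjusted p = 0.0134) and 1.08-fold higher with untreated values set to their limits. Fcrlb, an Fc receptor-like gene, was at least 2.49-fold higher (adjusted p = 0.0256). Csf3r, the receptor for granulocyte colony-stimulating factor, rose 3.34-fold (7.27, 9.36 and 8.31 against 6.51, 5.94 and 7.26, adjusted p = 0.0332), as the only gene called of 8 for neutrophils and mast cells. Btk, a kinase of B cells and myeloid cells, rose 4.41-fold (adjusted p = 0.0232), with 2 of 3 untreated samples above the limit.

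Cd163, Cd84, Ms4a4a and Cd209e passed without treated replicate 2 (adjusted p from 0.0145 to 0.0481), while Cd68, Fcrlb, Csf3r, Alox15 and Btk did not (0.0584 to 0.155). Without that sample every Cd209e value was under the limit, and with values under the limit set to it, Cd209e and Fcrlb did not pass (0.213 and 0.105). Each of the 9 lost its call without untreated replicate 1 (0.0641 to 0.0933). Cd68, Fcrlb, Csf3r, Alox15 and Btk also lost it without untreated replicate 2 (0.0614 to 0.125), and Cd68, Csf3r and Alox15 without treated replicate 3 (0.0517 to 0.0763). Under housekeeping centring Cd68 and Csf3r did not pass (0.0537 to 0.0549). The summed scaled counts of the 7 macrophage genes were 8391, 16567 and 10887 in treated and 6652, 8172 and 7439 in untreated tumors. Cd14 made up most of each untreated sum and a small part of that of treated replicate 2. The part of these cells in the results for other genes was not tested.

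Of the gene lists, that of T cell markers held the most called genes. Of 14 T cell markers, 6 were higher and 0 lower, with a median difference of 1.58 (log2), or 1.10 without treated replicate 2, when 0 passed. Icos, an inducible costimulatory receptor of activated T cells, had values of 6.39, 9.07 and 7.61 in treated tumors against 3.67, 4.97 and 5.50. The groups did not overlap, and 1 of 3 untreated samples exceeded the limit. Icos was 7.86-fold higher (log2 difference 2.97, SE 0.60, adjusted p = 0.0171). Cd28, the main costimulatory receptor of naive T cells, had 6.36, 8.60 and 7.23 against 3.30, 5.19 and 5.50, 6.64-fold higher (log2 difference 2.73, SE 0.62, adjusted p = 0.0232), again with 1 of 3 untreated samples above the limit. Cd3g, part of the T cell receptor complex, was above the limit in every sample. It stood at 7.19, 9.25 and 8.45 against 5.83, 5.39 and 7.01, 4.67-fold higher (adjusted p = 0.0232). The scavenger receptor gene Cd6 had 6.71, 8.60 and 7.29 against 4.67, 5.03 and 6.08 (4.84-fold, adjusted p = 0.0241, with 1 untreated sample above the limit). With values under the limit set to it, the log2 differences of Cd28 and Cd6 fell from 2.73 and 2.27 to 2.02 and 1.96. Both genes still passed (adjusted p = 0.0101 and 0.00965).

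Lat, the adaptor that links the T cell receptor to downstream signals, had 6.54, 7.56 and 6.13 against 2.78, 5.39 and 5.33. Untreated replicate 1 was far below its own group here and beneath the limit (4.73-fold, adjusted p = 0.034). The kinase gene Lck, also chosen after its values were seen, had 7.04, 8.83 and 8.09 against 6.20, 6.48 and 7.13. It was 2.60-fold higher (adjusted p = 0.0458), although treated replicate 1 lay within the untreated range. Receptor signaling and costimulation of T cells was covered by 14 genes, of which 5 passed: Lat, Lck, Cd28, Icos and Cd40lg, the ligand by which helper T cells act on dendritic cells and B cells (5.77, 7.74 and 6.84 against 4.37, 4.97 and 4.87, at least 2.77-fold higher, adjusted p = 0.0452). Their median difference was 1.29. Cxcr6, a chemokine receptor of tissue-resident T cells, had 7.19, 9.64 and 8.79 against 5.18, 5.56 and 6.36 (7.16-fold, adjusted p = 0.0204, with 2 of 3 untreated samples above the limit). Cd3e, at 5.73, 7.59 and 6.78 against 4.37, 4.91 and 6.02, did not pass (adjusted p = 0.0629).

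Genes of cytotoxic lymphocytes did not pass. Of 15 measured, 0 were called, with a median difference of 0.77, or 0.37 without treated replicate 2. The granzyme gene Gzma had 8.50, 11.75 and 9.28 against 7.59, 8.41 and 8.42 (adjusted p = 0.136), so that the groups were apart by a narrow gap and treated replicate 2 was far above the rest. Granzyme B (Gzmb) stood at 5.53, 8.36 and 6.07 against 5.80, 5.71 and 5.91, a log2 difference of 0.85 with all samples and -0.01 without treated replicate 2 (adjusted p = 0.366 and 0.993). The natural killer receptor gene Klrd1 had 7.63, 8.97 and 8.34 against 6.75, 6.92 and 7.90 (adjusted p = 0.129). Cd8a and Ifng were below the limit in all 6 samples, so neither the CD8 coreceptor nor interferon gamma could be compared at this depth.

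Summed scaled counts of the 14 T cell markers were 1182, 4107 and 2019 in treated and 498.0, 669.1 and 1065 in untreated tumors, and those of the 15 cytotoxic genes were 1448, 6514 and 2413 against 960.8, 1303 and 1929. The T cell sums did not overlap, while the cytotoxic sum of treated replicate 1 lay among the untreated tumors. All 8 called genes of the T cell paragraphs lost their calls without treated replicate 2 (adjusted p from 0.0584 for Icos to 0.215 for Lck) and without untreated replicate 1 (0.0808 to 0.144). Cd6, Cd3g, Lck, Cd40lg and Cxcr6 lost them without untreated replicate 2 (0.0656 to 0.121), Cd3g, Lck and Cd40lg without treated replicate 3 (0.0517 to 0.0921), and Cd40lg without untreated replicate 3 (0.0654). Lck and Cd40lg did not pass under median centring (0.0656 to 0.068), nor did Lat, Lck and Cd40lg under housekeeping centring (0.0537 to 0.0786).

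Among 8 inhibitory checkpoint genes, 1 passed. Pdcd1lg2, which encodes PD-L2, a ligand of the inhibitory receptor PD-1 on dendritic cells and macrophages, had 7.74, 11.63 and 9.45 in treated tumors against 4.88, 6.79 and 7.05. The groups did not overlap, and 2 of 3 untreated samples exceeded the limit. It was 10.3-fold higher (log2 difference 3.37, SE 0.80, adjusted p = 0.0241). The broader PD-1 ligand gene Cd274 (PD-L1) had 8.31, 10.58 and 9.61 against 7.85, 9.19 and 9.23, with overlap and a log2 difference of 0.75 (adjusted p = 0.332). The receptor genes also overlapped between the groups. Pdcd1 (PD-1) had 6.89, 9.27 and 8.08 against 6.10, 7.11 and 7.87 (adjusted p = 0.176), and Lag3, which binds MHC class II, had 8.12, 10.01 and 8.71 against 7.56, 7.92 and 8.42 (adjusted p = 0.125). Ctla4, a competitor of CD28 for its ligands, was below the limit in treated replicate 1 and in every untreated sample (adjusted p = 0.129). The median of the 8 genes was 0.91, and 0.40 without treated replicate 2. Pdcd1lg2 did not pass without treated replicate 2 (difference 2.36, adjusted p = 0.111), without untreated replicate 1 (0.0933) or without untreated replicate 2 (0.0599).

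No antigen presentation gene passed, and H2-K1, H2-Q1, H2-Q10 and H2-Ob were below the limit in all 6 samples. Of 5 genes of MHC class II presentation 0 were called, with a median of 1.12 (0.67 without treated replicate 2), and of 9 genes of MHC class I presentation 0 were called, with a median of 0.19. The class II chain H2-Aa had 13.71, 15.59 and 14.94 against 13.37, 13.57 and 14.03, and H2-Eb1 had 13.15, 15.11 and 14.23 against 12.59, 13.14 and 13.40 (adjusted p = 0.171 and 0.129). In both, treated replicate 1 lay inside the untreated range and replicates 2 and 3 above it. Cathepsin S (Ctss), the protease that trims the invariant chain, had 12.38, 14.79 and 13.63 against 12.23, 11.10 and 12.39 (adjusted p = 0.0546). For the class I heavy chain gene H2-D1 the values were 14.38, 15.10 and 14.63 against 14.01, 14.47 and 14.47 (adjusted p = 0.333). H2-M3, a class I molecule that presents formylated peptides, had a log2 difference of 0.51 (adjusted p = 0.299).

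Interferon response genes did not separate the tumors. Of 4 measured, 1 was higher and 0 lower, with a median difference of -0.12. Jak2, a kinase downstream of many cytokine receptors, was the 1 that passed, at 7.56, 8.28 and 7.48 against 6.24, 6.25 and 6.25. Its untreated values were nearly equal. It was 2.88-fold higher (log2 difference 1.53, SE 0.29, adjusted p = 0.0134). The interferon gamma targets showed no such gap. Cxcl9, a T cell attracting chemokine, had 8.996, 10.79 and 11.04 against 8.79, 11.31 and 11.35 (adjusted p = 0.885), with replicate 1 the lowest of each group. The transcription factor gene Irf1 had 10.49, 11.16 and 11.37 against 10.49, 11.57 and 11.68 (adjusted p = 0.668), and here too replicate 1 was the lowest of each group. Of 11 genes of toll-like receptors and NF-kB, 1 was called: Tlr4, the lipopolysaccharide receptor, with 8.47, 9.06 and 8.66 against 8.02, 7.77 and 7.80 (1.82-fold, adjusted p = 0.0241). Of 11 cytokines and chemokines 2 were called, Cxcr6 and Il6, and Il6 was below the limit in all 6 samples. Jak2 and Tlr4 lost their calls without treated replicate 2 (adjusted p = 0.0584 and 0.112) and without untreated replicate 1 (0.0641 and 0.0808), and Tlr4 also without untreated replicate 2 (0.0896) or 3 (0.0612).

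Several lysosomal hydrolases were higher in treated tumors. Of 16 autophagy and lysosome genes, 5 were higher and 0 lower, with a median difference of 0.88, or 0.67 without treated replicate 2. Cathepsin D (Ctsd), an aspartic protease, had 11.93, 13.38 and 12.61 against 10.86, 10.79 and 11.23, 3.20-fold higher (log2 difference 1.68, SE 0.38, adjusted p = 0.0232). Gusb, the lysosomal beta-glucuronidase, had 8.65, 9.94 and 9.06 against 7.53, 7.61 and 8.10 (2.77-fold, adjusted p = 0.0232). These groups were well apart. Hexa, a subunit of hexosaminidase, and Ctsz, a carboxypeptidase, were separated more narrowly. Hexa had 7.99, 10.29 and 9.18 against 7.50, 6.66 and 7.78 (3.58-fold, adjusted p = 0.031), and Ctsz had 10.90, 13.04 and 11.89 against 10.20, 9.45 and 10.84 (3.43-fold, adjusted p = 0.0332). Gabarap, an autophagosome protein chosen after its values were seen, passed below the limit in all 6 samples (adjusted p = 0.0452). The 5 genes lost their calls without treated replicate 2 (adjusted p from 0.109 to 0.208) and without untreated replicate 1 (0.0816 to 0.144), the 4 hydrolases without untreated replicate 2 (0.0808 to 0.121), Hexa, Ctsz and Gabarap without treated replicate 3 (0.062 to 0.0824) and Gabarap without untreated replicate 3 (0.0889). Gabarap did not pass under median centring (0.0734), nor did Ctsz and Gabarap under housekeeping centring (0.0549 to 0.0918).

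Many lysosomal promoters carry an E-box around the letters CACGTG, which the MiT/TFE factors and other basic helix-loop-helix proteins bind. The 250 bases before the Ctsd start are shown because Ctsd had the smallest p of the called lysosomal genes and its window holds this motif 2 times. They lie on the minus strand at chr7:142387828-142388077 (RefSeq, GRCm38.p6), in the 5′ flank of the gene, with the motif in capitals.
Ctsd: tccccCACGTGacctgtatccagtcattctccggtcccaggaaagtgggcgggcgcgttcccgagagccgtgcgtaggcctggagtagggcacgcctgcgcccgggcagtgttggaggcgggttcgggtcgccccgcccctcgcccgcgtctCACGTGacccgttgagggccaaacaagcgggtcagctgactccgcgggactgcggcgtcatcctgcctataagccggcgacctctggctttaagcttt
CACGTG reads the same on both strands. Of the 4 called hydrolases it occurred in the window of Ctsd but not of Gusb, Hexa or Ctsz. It was present in 6 of the 53 higher genes with a window (11.3%) and in 6.05% of 27025 windows of all genes. The share among panel genes was not counted, and a difference between these shares was not tested.

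A further 14 genes passed, several of them known from myeloid cells. They lie outside the rule for named genes and were chosen after their values were seen. Hsd11b1, which regenerates active glucocorticoid, had 6.63, 8.80 and 7.01 against 5.40, 5.60 and 5.54, 3.91-fold higher (adjusted p = 0.0204, and 0.0211 without treated replicate 2). Gatm, the first enzyme of creatine synthesis, had 9.80, 11.65 and 10.98 against 9.37, 8.50 and 9.53 (3.19-fold, adjusted p = 0.0241). The toll-like receptor accessory genes Ly86 (MD-1) and Ly96 (MD-2) were 3.11-fold and 2.24-fold higher (adjusted p = 0.0458 and 0.0489). Fcrls and Fcgr4, Fc receptor genes of mouse myeloid cells, were 4.01-fold and 1.87-fold higher (adjusted p = 0.0489 and 0.0498). The chemerin receptor gene Cmklr1 was 2.86-fold higher with overlapping groups (adjusted p = 0.0484), and the leukotriene A4 hydrolase gene Lta4h was 1.70-fold higher (adjusted p = 0.0489). The signaling genes Traf1, Cbl, Nras, Npr2 and Acap2 and the retinol carrier gene Rbp4 were between 1.50-fold (Nras) and 3.25-fold (Traf1) higher, with adjusted p from 0.0365 for Npr2 to 0.0498 for Acap2. For Fcrls, Npr2 and Rbp4, 2 of 3 untreated samples exceeded the limit.

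Apart from Hsd11b1, the calls in this set ended without treated replicate 2 (adjusted p from 0.112 to 0.234). All 14 ended without untreated replicate 1 (0.0808 to 0.157) and without untreated replicate 2 (0.0584 to 0.146). Those other than Hsd11b1, Npr2 and Acap2 ended without treated replicate 3 (0.0608 to 0.11), and Cbl, Ly96, Lta4h, Fcrls, Nras, Fcgr4 and Acap2 without untreated replicate 3 (0.0649 to 0.0885). Those other than Hsd11b1 and Gatm did not pass under either centring (0.0546 to 0.144).

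Metabolic enzymes moved little as groups. No member passed among 26 genes of mitochondrial respiration (median -0.06), 23 of glycolysis (0.18), 20 of the TCA cycle and pyruvate entry (0.11), 8 of the pentose phosphate pathway (0.22), 6 of fatty acid and cholesterol synthesis (-0.37), 6 of amino acid transport (0.33) or 8 of the hypoxia response (0.18), where the median of the panel was 0.26. Single genes passed in other pathways. Cpt1a, the gatekeeper of fatty acid entry into mitochondria, was the 1 gene called of 11 for fatty acid oxidation, at 8.09, 8.69 and 8.02 against 7.32, 7.41 and 7.14. The gap was clear in every replicate (1.97-fold, log2 difference 0.98, SE 0.20, adjusted p = 0.0172). Glud1, glutamate dehydrogenase, was the 1 gene called of 20 for glutamine and amino acid synthesis, at 10.08, 11.12 and 10.38 against 9.48, 9.41 and 9.70 (2.00-fold, adjusted p = 0.0293). The uridine-cytidine kinase gene Uck2 had 7.29, 7.07 and 6.74 against 6.06, 6.25 and 5.97 (1.92-fold, adjusted p = 0.0489), and unlike most called genes it was highest in treated replicate 1.

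Hmox1, heme oxygenase 1, was the 1 gene called of 18 in the reactive oxygen response, at 7.27, 9.73 and 8.14 against 6.53, 6.44 and 6.98 (3.32-fold, adjusted p = 0.0489). Of 23 MYC and mTOR genes 2 passed, Pik3cd and Rragc, a GTPase of amino acid sensing (8.88, 9.84 and 9.13 against 8.05, 8.24 and 8.12, 2.21-fold, adjusted p = 0.0332). Outside the lists, the ribosomal S6 kinase gene Rps6ka1 had 6.08, 6.38 and 6.13 against 3.97, 4.38 and 4.53, at least 1.84-fold higher (adjusted p = 0.0171). Its treated values were nearly equal. Arginine, tryptophan and kynurenine metabolism was covered by 22 genes, of which 2 passed, Nos3 and Otc, the latter below the limit in all 6 samples. Arginase 1 (Arg1), which consumes arginine in suppressive myeloid cells, had 12.35, 15.15 and 13.56 against 11.90, 12.24 and 11.85 and just missed the threshold (log2 difference 1.69, SE 0.52, adjusted p = 0.0563). Inducible nitric oxide synthase (Nos2) had 3.87, 7.89 and 5.62 against 3.67, 5.24 and 5.38 (adjusted p = 0.457), and the kynureninase gene Kynu had 6.76, 8.20 and 7.64 against 5.95, 6.20 and 6.63 (adjusted p = 0.079).

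Genes of central carbon metabolism are given by their values, since none passed. Lactate dehydrogenase A (Ldha) had 11.19, 11.56 and 11.14 against 10.57, 10.67 and 10.05 (adjusted p = 0.247). The glucose transporter Slc2a1 had 7.86, 8.52 and 7.87 against 7.95, 8.24 and 7.80 (log2 difference 0.08, adjusted p = 0.882), and its sign turned under both centrings. Slc2a3, a transporter of leukocytes and neurons, exceeded the limit in treated replicate 2 alone (adjusted p = 0.0818). Hexokinase 1 (Hk1) had 11.45, 10.93 and 11.41 against 11.68, 11.80 and 11.78, with no overlap (adjusted p = 0.0871). Sdhb, the iron-sulfur subunit of succinate dehydrogenase, had 8.98, 8.97 and 8.86 against 8.32, 8.33 and 8.25, and Mpc1, a subunit of the mitochondrial pyruvate carrier, had 7.71, 7.77 and 7.77 against 7.18, 7.16 and 7.13. Both had tight groups that did not overlap, yet adjusted p was 0.0629 and 0.079. Pyruvate dehydrogenase kinase 4 (Pdk4) had a log2 difference of 0.99 (adjusted p = 0.0994). The respiratory chain genes Ndufa4 and Cox7b had differences of -0.59 and 0.58 (adjusted p = 0.169 and 0.139).

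Lipid synthesis and transport genes did not pass. Acetyl-CoA carboxylase (Acaca), fatty acid synthase (Fasn) and the desaturase gene Scd1 had log2 differences of -0.39, -0.46 and -0.35 (adjusted p = 0.272, 0.4 and 0.505). The transketolase gene Tkt (9.54, 8.79 and 9.14 against 8.53, 8.57 and 8.27) and Prps1, which makes phosphoribosyl pyrophosphate, had differences of 0.70 and 0.78 (adjusted p = 0.202 and 0.204). The amino acid transporter genes Slc3a2 and Slc1a5 had 0.54 and 1.21 (adjusted p = 0.137 and 0.216), with Slc1a5 below the limit in all untreated samples. Glutamine synthetase (Glul) had 9.43, 11.32 and 10.40 against 9.48, 8.98 and 9.68 (adjusted p = 0.135), and the oxygen-regulated factor gene Hif1a had 10.29, 11.29 and 10.54 against 9.95, 9.77 and 9.80 (adjusted p = 0.0994). The phagocyte oxidase gene Cybb and the peroxiredoxin gene Prdx5 had differences of 1.03 and 0.84 (adjusted p = 0.0974 and 0.0877).

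For Cpt1a, Glud1, Uck2, Hmox1, Rragc, Rps6ka1 and the cytokine gene Il6, no call held without treated replicate 2 (adjusted p from 0.0584 for Cpt1a to 0.215 for Hmox1) or without untreated replicate 1 (0.0641 to 0.144). Those other than Cpt1a and Rps6ka1 also ended without untreated replicate 2 (0.0642 to 0.13), Uck2, Hmox1 and Rragc without treated replicate 3 (0.0517 to 0.0763) or untreated replicate 3 (0.0643 to 0.104), and Uck2 without treated replicate 1 (0.0739). Uck2 and Hmox1 did not pass under median centring (0.0546 to 0.0726), nor did Glud1, Uck2, Hmox1 and Il6 under housekeeping centring (0.0549 to 0.0669).

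**Figure D4:**
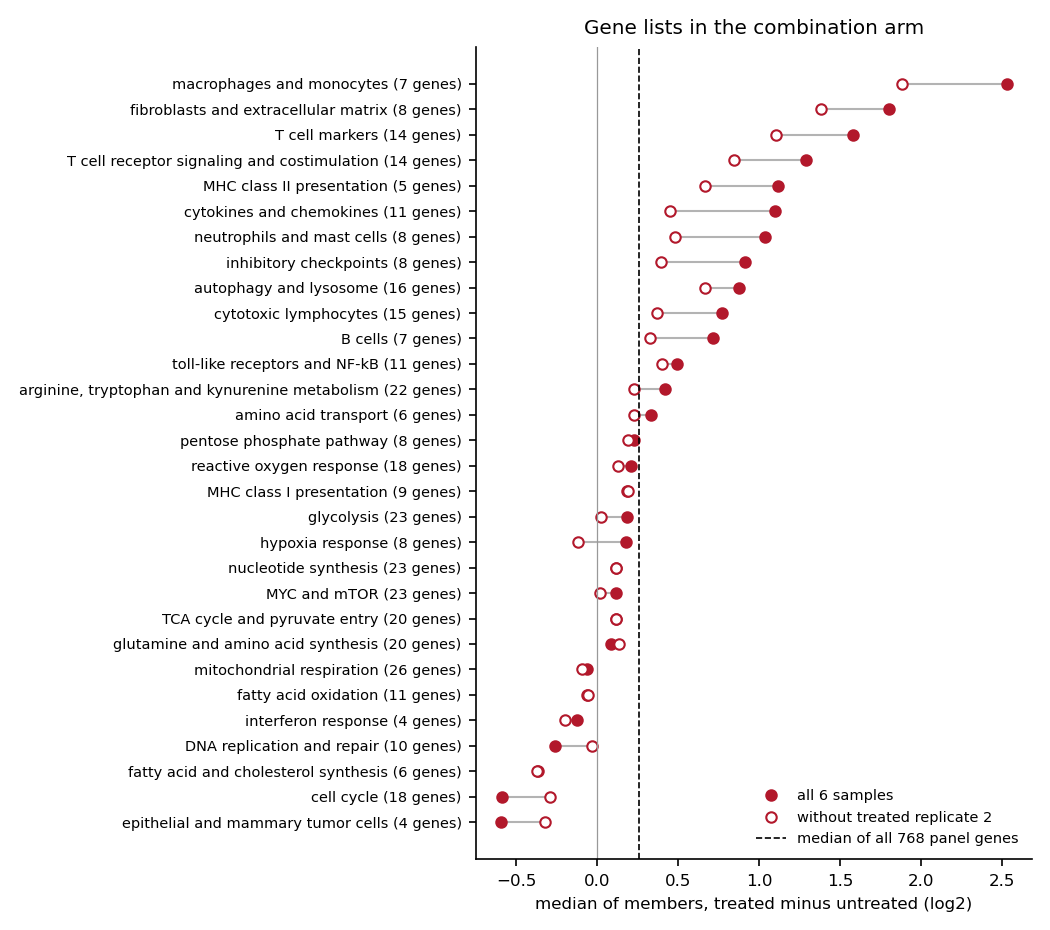
Median treated minus untreated difference (log2) of the members of each gene list with at least 4 measured genes, with all 6 samples (filled) and without treated replicate 2 (open), and the median of all 768 panel genes as a dashed line. Macrophage genes lie highest at 2.53 and 1.88, and cell cycle and epithelial genes lie lowest at -0.59. The lists were chosen with earlier results of these data known.

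Of the 6 lower genes, 5 are described here, and they belong to DNA synthesis and cell division. Ncaph, a condensin subunit that compacts chromosomes, had 8.76, 8.22 and 8.81 against 9.48, 9.38 and 9.26 and was 1.71-fold lower (log2 difference -0.78, SE 0.18, adjusted p = 0.024). Thymidine kinase 1 (Tk1), which salvages thymidine in S phase, had 9.49, 8.45 and 9.59 against 10.17, 10.31 and 9.99 (1.97-fold lower, adjusted p = 0.0447). Cyclin A2 (Ccna2) had 9.68, 8.78 and 9.77 against 10.10, 10.45 and 10.20 (1.79-fold lower, adjusted p = 0.0479). None of these groups overlapped, and treated replicate 2 was the lowest sample for each. The factor genes Mybl2 (B-Myb), with 2 of 3 treated samples above the limit, and Mybl1 (A-Myb) were 1.88-fold and 1.81-fold lower (adjusted p = 0.0452 and 0.0458).

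Of 18 cell cycle genes 3 were lower and 0 higher, with a median difference of -0.59, or -0.29 without treated replicate 2. Cdc20, an activator of the anaphase-promoting complex, Prim2, a primase subunit, and the Fanconi anemia gene Fanca lay below the untreated range in every treated sample without passing (adjusted p = 0.0524, 0.0575 and 0.0706). The proliferation marker Mki67 went the other way, with 9.003, 8.45 and 8.64 against 8.32, 8.53 and 8.14 (log2 difference 0.37, adjusted p = 0.597). The 5 genes lost their calls without treated replicate 2 (0.109 to 0.215), untreated replicate 1 (0.0816 to 0.118) and untreated replicate 2 (up to 0.13), Mybl2 without treated replicate 3 (0.0763), and Tk1, Mybl2, Mybl1 and Ccna2 without untreated replicate 3 (0.0578 to 0.0889). All 5 passed under both centrings.

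Genes of the mammary tumor cells did not pass. Of 4 measured, 0 were called, with a median of -0.59, or -0.32 without that sample. Transferrin (Trf), an iron carrier secreted by mammary epithelium, had 16.14, 15.50 and 16.35 against 16.43, 16.60 and 16.32 (adjusted p = 0.208). It was abundant in every sample, while the keratin genes looked for and Erbb2 were not among the panel genes. The folate receptor gene Folr1 had 9.04, 7.27 and 8.90 against 9.40, 9.34 and 9.24, and the carbonic anhydrase gene Car12 had 10.67, 9.28 and 10.10 against 11.06, 10.80 and 10.38 (adjusted p = 0.118 and 0.122). Trf, Folr1 and Car12 each had their lowest value in treated replicate 2. Egfr, which was highest in that sample, had a log2 difference of -0.04 (adjusted p = 0.929). The summed scaled counts of the 4 genes were 74904, 47763 and 85408 in treated tumors and 91599, 102240 and 84343 in untreated tumors. Nearly all of each sum was Trf. The share of tumor cells in a sample was not measured, and its part in the lower replication genes was not tested.

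Treated replicate 2 was apart from its group in both directions. The genes in which it exceeded the highest of the other 5 samples by most included Il10, Gzma, Tpsab1, Cpa3, Ctla4, Gzmb and Nos2, with excesses from 2.53 for Il10 to 2.27 for Nos2 (log2), followed by the called genes Cd209e, Fcrlb and Pdcd1lg2, with 2.24, 2.23 and 2.17. The mast cell protease genes Tpsab1 and Cpa3 stood at 6.72 and 7.14 in that sample and were below the limit in the other 5, and the cytokine gene Il10 was below the limit in all 6. It lay furthest under the lowest of the others for Folr1, Fanca, Cd14, Ldhb, Ccnd1 and Dtl. Lactate dehydrogenase B (Ldhb) had 13.21, 11.62 and 12.95 against 13.29, 13.16 and 13.14, and cyclin D1 (Ccnd1) had 9.86, 8.48 and 9.67 against 9.85, 10.15 and 9.77 (adjusted p = 0.213 and 0.346). For both, treated replicates 1 and 3 lay at or near the untreated values. The replication factor gene Dtl had 8.83, 7.72 and 9.001 against 9.20, 9.63 and 9.43 (adjusted p = 0.0716). Apart from Cd209e, Fcrlb and Pdcd1lg2, no gene named in this paragraph passed. Housekeeping genes gave this sample a mean 0.25 above the average of all 18 samples, where treated replicates 1 and 3 were 0.19 above it.

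The same contrast was read in the other arms, where treated and untreated tumors were compared with 2 samples each. By limma 0 genes passed in the control arm, 0 in the DC1 arm and 0 in the anti-semaphorin 4D arm (0% of 768 in each). At an unadjusted p under 0.05 there were 50, 100 and 14 genes, against 240 in the combination arm. The combination arm had 3 samples in each group and so smaller standard errors, and these counts are not on a like footing. The contrasts in these arms depended on single samples. In the DC1 arm the median difference was 0.28 (log2), 0.15 without untreated-tumor DC1 replicate 1 and 0.42 without untreated-tumor DC1 replicate 2. In the control arm it was 0.17, 0.24 without untreated-tumor control replicate 1 and 0.09 without untreated-tumor control replicate 2. Each of those fits left 1 untreated sample in the arm, so no count of genes is given for them. Without treated combination replicate 2, 2 genes passed in the DC1 arm. Col6a1 had a log2 difference of 2.95 in the combination, 1.32 (SE 0.49) in the DC1 arm, 0.92 (SE 0.49) in the antibody arm and 0.40 (SE 0.49) in the control arm. Icos had 2.97 against 0.60, 0.15 and 0.14 (SE 0.74 each), and Cd84 had 2.53 against 1.83, 0.75 and 0.51 (SE 0.60 each). For Tk1 the differences were -0.98 against 0.07, 0.12 and 0.40 (SE 0.32 each).

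Whether the contrast in the combination arm differed from that in the other arms was tested directly. Against the control arm 0 of 768 genes passed (0%; 81 at an unadjusted p under 0.05, lowest adjusted p = 0.392), and against the mean of the other 3 arms 0 passed (0%; 98 at an unadjusted p under 0.05, lowest adjusted p = 0.252). By unadjusted p, the leading genes above the mean of the other arms were Pparg (1.97, SE 0.43), Col6a1 (2.07, SE 0.49) and Runx1 (0.98, SE 0.25), and genes below it included Tk1 (-1.18, SE 0.32) and Cenpa (-0.90, SE 0.27), a centromeric histone. Each had an adjusted p of 0.252. Against the control arm, Wnt1 had 1.44 (SE 0.35, adjusted p = 0.392) while lying below the limit in all 6 combination samples, and the kynurenine pathway gene Haao had -1.83 (SE 0.58, adjusted p = 0.448). Without treated replicate 1 of the combination, 19 and 44 genes passed in these tests. With values under the limit set to the limit, 9 passed against the other arms.

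**Figure D5:**
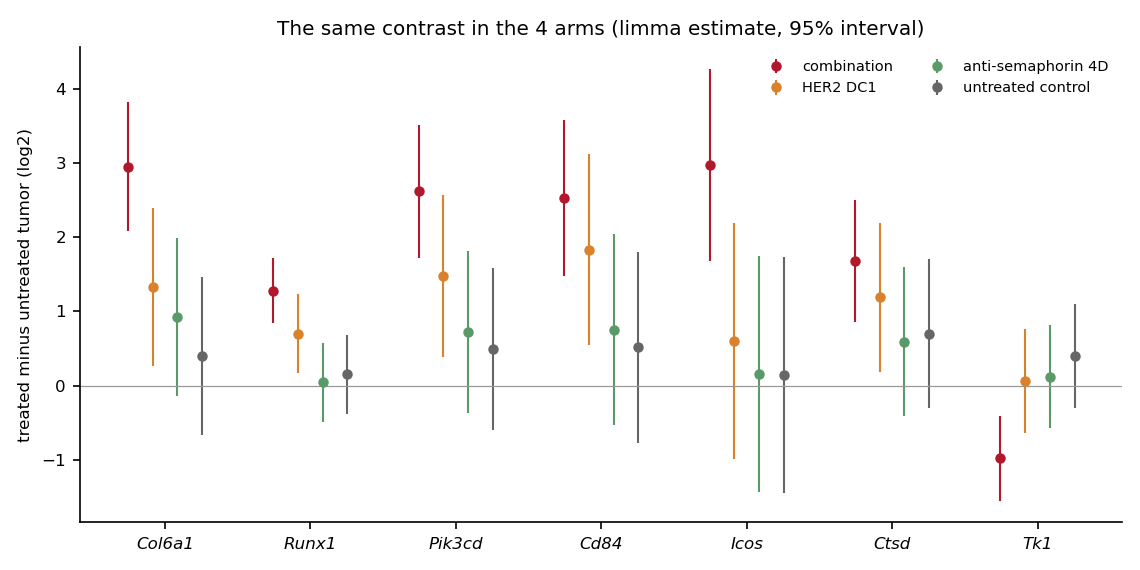
Treated minus untreated difference (log2) of 7 genes in each of the 4 arms, with points for the limma estimate and bars for its 95% interval. The combination (red) lies farthest from 0 for each of the 7 genes, which were chosen among genes called in that arm. This order therefore does not show a difference between arms.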

How the data were processed

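RNA of 18 mouse tumor samples was measured on 768 panel genes with 6 positive and 8 negative control probes. The authors deposited log2 values. Limma is the only tool in the submitters' processing notes, without role or version, and background subtraction and filters are not given. In the 6 combination columns, 2 to the power of the value less 1 stepped by 1 factor per sample (0.852 to 1.32), and 99.6% to 100% of values up to 500 were whole within 0.05 after it was removed. Of the other columns, 6 held whole numbers.

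The limit of a sample was the mean plus 2 SD of its negative probes on that scale. Values at or below it are bounds: "at least N-fold" sets the brighter group's mean against the dimmer group's limit or value, whichever was higher, and no fold is given where that is under 1 or both groups were dim. Values of the brighter group under its own limit enter as deposited, and the fold is then not a bound, as for Cd163, Pparg, Cd209e and Agk. Folds given without a limit use the deposited values of groups with at least 1 sample above it, even where other samples lay under it. Being computed from log2(count + 1), folds understate changes at low counts. The precision is limited by 3 samples a group, and since separate mice are not stated, p-values reflect only the spread between these samples, which may be technical.

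The deposited values were fitted in limma 3.58.1 (R 4.3.3; lmFit and eBayes, trend and robust off) with 1 mean for each of the 8 groups over all 18 samples, which left 10 residual and 3.02 prior degrees of freedom. Adjusted p is Benjamini-Hochberg over 768 genes within a contrast. Tables used Python 3.11.15, numpy 2.4.6 and pandas 2.3.3. Gene lists were described by counts and medians, with no set test. The fit was run on simulated data with the same spread in every sample, so that run could not show how the fit treats an outlying sample. Of 768 symbols, 767 matched RefSeq.

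The samples, lists and naming rule were chosen with earlier results of these data known. Named genes were the 15 largest called differences in each direction, 2 to 4 of smallest p per list, 19 genes always given, and the extremes of treated replicate 2 and of the differences between arms. Of 140 genes that met the rule, 39 are not described; 3 of them passed, among them Otc and Rimklb (both under the limit), and the rest had adjusted p from 0.0524 to 0.954. Some genes are not reported here.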

Additional observations from a re-analysis of the deposited data

How the results depend on the processing

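In the combination arm the 70 genes became 45 with the replicate number as a block (replicate block), 3 on the 6 combination samples alone, 0 on those with the block and 5 to 158 when a sample was left out. A fit on scaled columns alone (chosen after seeing the data) left 1 sample in each group outside the combination. Such groups add nothing to the estimate of the spread, so it was the same test as that on the 6 combination samples alone. Setting a floor gave 88, a pseudocount of 10 gave 97, sample weights 103, trend and robust 82, and leaving out low genes 63. Deviations of same-numbered treated and untreated samples correlated at 0.359, -0.0589 and 0.0206, and not every sample correlated best with its own number, so the numbers were not taken to pair the samples. With the block, 22 of the 119 genes tracked no longer passed, among them Cd68, Lck, Cd40lg, Col6a2, Pdgfrb, Uck2, Hmox1, Tk1, Mybl1, Mybl2 and Ccna2. The others were 11 of the 14 genes described together with Hsd11b1, all but Hsd11b1, Gatm and Npr2 (adjusted p from 0.0609 to 0.0681). For the difference from the control arm the count ran from 0 to 19 when a sample was left out. For the difference from the mean of the other arms it was 9 with the floor and 0 to 44 when a combination sample was left out. The contrast in the control arm had 0 to 7 genes and in the DC1 arm 0 to 95 when a sample was left out, and 3 and 4 on scaled columns, where the antibody arm had 1. Signs turned for 8 of the 119 genes tracked, none of them called. Slc2a1 was at -0.13 under median centring, -0.106 under housekeeping centring and -0.0244 with sample weights. When a sample was left out, the values ran from -0.135 to 0.205 for Slc2a1, -1.05 to 0.432 for Cxcl9, -0.285 to 0.178 for Egfr, -0.0942 to 0.541 for Haao, -0.00758 to 1.41 for Gzmb, -0.0428 to 0.875 for Ifng, -0.616 to 0.0186 for Irf1 and -0.018 to 1.99 for Nos2. The cause of these changes was not tested, except that fewer samples leave fewer degrees of freedom. Low counts limit the 123 genes under the limit in all 6 samples.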
